A study of Mus musculus with 4 samples.

Results

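A set of 34 genes of glycolysis and of the response to low oxygen was followed in mouse mammary tumours that had lost 1 copy of Elf5. The genes were fixed by symbol, each was matched by its Ensembl gene identifier to the GENCODE annotation of GRCm38, and all 34 of 34 were found among the 51826 rows of the count table and passed the filter on low counts, as did 21607 genes in all. Elf5+/- tumours (HET, 2 libraries) were compared with Elf5+/+ tumours (WT, 2 libraries). Every tumour of both groups carried the C3-T transgene. The labels do not expand that name, which in breast cancer work commonly stands for a transgene that expresses the simian virus large T antigen in mammary epithelium. No treatment, age or strain is given, and the sources used here do not say which part of Elf5 was deleted. Tumours were digested, and cells were sorted with antibodies to CD45, CD31 and TER119, surface proteins of leukocytes, endothelial cells and erythroid cells, to enrich tumour cells before RNA was taken. Both HET titles open with the same number, so these libraries may be tumours of 1 animal, while the WT titles open with different ones. The labels do not say what the number means, so p-values reflect only how far these libraries differ, which may be technical.

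Glycolysis turns glucose into pyruvate in the cytosol, and tumours often send that pyruvate to lactate even where oxygen is present. When oxygen is low, the prolyl hydroxylases of the EGLN family no longer mark the alpha subunit of hypoxia-inducible factor (HIF) for destruction, and HIF then drives transcription of glucose transporters, most glycolytic enzymes, angiogenic factors and its own inhibitors. Because HIF1A is controlled mainly as a protein, its transcript level does not report its activity.

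Totals were 12695132 to 15307939 counts per library, and values below are counts scaled to library size by TMM (CPM), a scaling that allows for differences in library composition. Elf5 stood at 5.39 and 10.6 CPM in HET 1 and HET 2, against 35.6 CPM in WT 1 and 4.70 CPM in the other WT library, which is called the library labelled WT 2 because its Elf5 level, below both HET libraries, goes against that label. All HET over WT directions below depend on that label, and whether reads from the deleted part of Elf5 were counted is not known. The library labelled WT 2 also stood apart in other ways: 44.5% of gene rows had no count there, against 29.9% to 31.3% elsewhere. All values come from a mixed RNA pool, in which fewer cells of a type and less RNA per cell cannot be told apart.

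Most hypoxia and glycolysis genes stood lower in the HET libraries, but none passed the test. By the edgeR quasi-likelihood test with Benjamini-Hochberg adjustment, 0 of 34 members passed an adjusted p under 0.05, as did 0 of the 21607 genes tested (0%). Adjusted p among members lay between 0.986 and 0.999. At an unadjusted p under 0.05 there were 6 members, where 3.78% of all genes were: 5 members lower in HET (Hk2, Pgk1, Pgam1, Bnip3 and P4ha1), where 1.83% were, and 1 member higher (Aldoc), where 1.95% were. DESeq2 called 1 member, Bnip3 (adjusted p = 0.0454), and 0.620% of all genes, while limma-voom called 0 members and 0% of genes. The HET over WT log2 fold change lay below 0 for 31 of 34 members, against 47.3% of all genes, with a median of -0.52 against 0.04. Both HET libraries lay below both WT libraries for 15 members, against 15.9% of genes. The reverse held for Aldoc alone, against 19.6% of genes. The members were chosen with earlier results of these data known, so these counts describe the set and are not a test of it.

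The WT libraries differed from each other as well. Of the 34 members 25 were highest in the library labelled WT 2, which was the highest library for 26.6% of all genes, and 27 were higher there than in WT 1. Across members the median log2 ratio of the library labelled WT 2 to WT 1 was 0.44, against -0.17 over all genes. The median log2 ratio of HET 2 to HET 1 was 0.04. Set against WT 1, the members' median log2 ratio was -0.29 in HET 1 and -0.25 in HET 2, and set against the library labelled WT 2 it was -0.73 in HET 1 and -0.71 in HET 2. When the library labelled WT 2 was left out, the median log2 fold change was -0.23 and 22 of 34 members were below 0, where 48.4% of all genes were. Leaving out WT 1 gave a median of -0.68 and 31 members below 0, where 43.7% of genes were. In that fit 1 member, Car9, passed in edgeR, lower in HET, where 3.04% of genes passed and 0.759% passed as lower. In the fit without the library labelled WT 2, 0 members passed in edgeR, where 0.0417% of genes passed and 0.0370% passed as lower. At an unadjusted p under 0.05, 12 members were lower in HET without WT 1 (4.86% of genes) and 5 without the library labelled WT 2 (2.47%). Leaving out HET 1 or HET 2 left 31 members below 0, where 50.9% and 53.5% of genes were, with 2 members (0.898% of genes) and 2 members (1.07%) lower at an unadjusted p under 0.05.

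**Figure D1:**
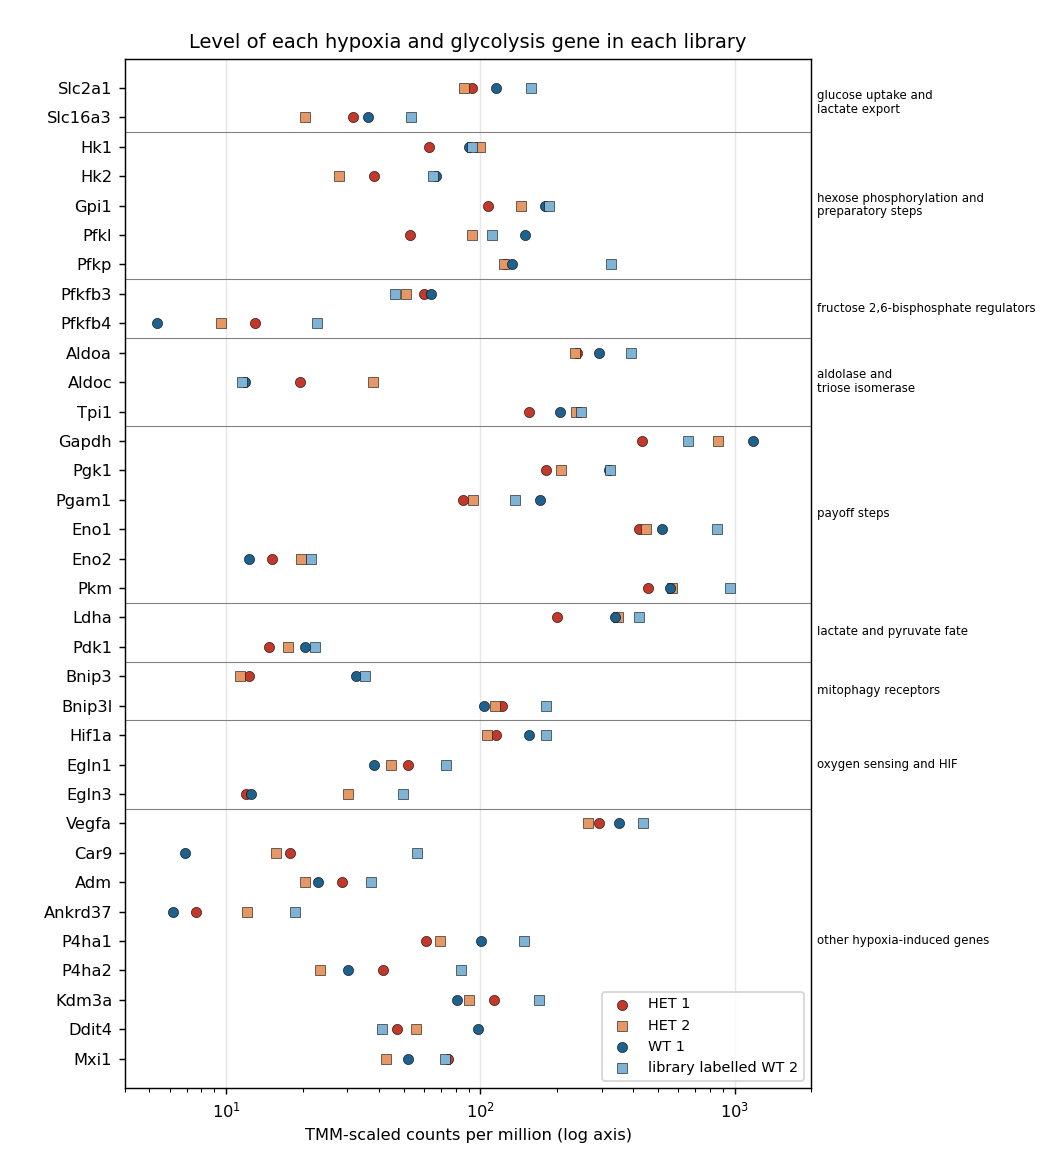
Level of each of the 34 genes (rows, grouped by role) in the 4 libraries, as TMM-scaled CPM on a log axis. Each point is 1 library, with HET in red and orange and WT in blue. For Bnip3, Hk2 and Pgk1 both HET points lie left of both WT points, while for Car9, Pfkfb4 and Ankrd37 WT 1 is the lowest and the library labelled WT 2 the highest.

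The dependence on that library was also counted by role. The grouping into enzymes and regulators was made with these values in view, and no difference between the groupings was tested. Among the 18 transporters, glycolytic enzymes, lactate dehydrogenase and pyruvate dehydrogenase kinase genes, 16 had a log2 fold change below 0 with all libraries (median -0.56) and 16 without the library labelled WT 2 (median -0.32). Among the 16 regulators, oxygen sensors and other hypoxia-induced genes, 15 were below 0 with all libraries (median -0.39) but 6 without it (median 0.15). Both HET libraries lay below WT 1 for 12 of the 18 and for 6 of the 16, where 33.6% of all genes did. Both lay above WT 1 for 2 of the 18 (Aldoc and Eno2) and for 6 of the 16 (Pfkfb4, Bnip3l, Egln1, Car9, Ankrd37 and Kdm3a), where 33.8% of all genes did. The HET libraries differed here. In HET 1 the median log2 ratio to WT 1 was -0.43 over the 18 and 0.26 over the 16, with 16 and 7 genes below WT 1. In HET 2 it was -0.26 over the 18 and -0.22 over the 16, with 12 and 9 genes below WT 1.

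**Figure D2:**
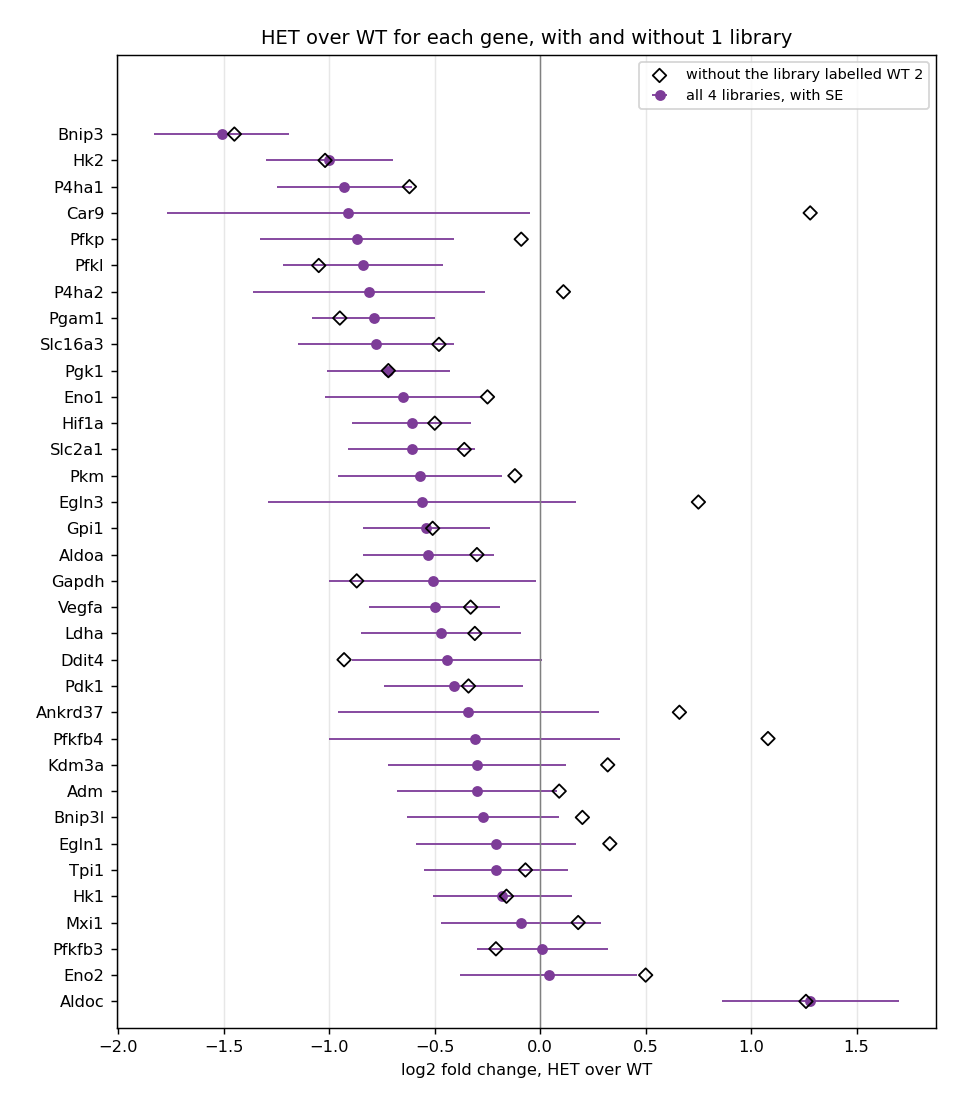
Log2 fold change of HET over WT for each gene (rows, ordered by value). Filled circles with bars give the edgeR estimate and its SE from all 4 libraries, and open diamonds the estimate without the library labelled WT 2. The diamonds of Bnip3, Hk2 and Pgk1 stay near their circles, and those of Car9, Pfkfb4 and Egln3 cross 0.

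HIF binds DNA at a short core, A or G followed by CGTG. Promoters are printed for the 6 members with an unadjusted p under 0.05 in edgeR, those whose levels the results turn on: 5 lower in HET and Aldoc, the 1 higher. Each runs from 250 bases before to 50 bases after the RefSeq transcript start on GRCm38.p6, 5′ to 3′, with every match to ACGTG or GCGTG on either strand in capitals.
Bnip3, chr7:138909457-138909756, minus strand: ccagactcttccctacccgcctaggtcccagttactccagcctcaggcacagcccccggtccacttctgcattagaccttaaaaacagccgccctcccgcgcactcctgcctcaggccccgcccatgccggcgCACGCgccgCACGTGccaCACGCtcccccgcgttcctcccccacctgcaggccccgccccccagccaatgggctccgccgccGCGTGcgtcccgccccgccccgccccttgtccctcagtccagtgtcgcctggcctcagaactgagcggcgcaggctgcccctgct
Hk2, chr6:82774405-82774704, minus strand: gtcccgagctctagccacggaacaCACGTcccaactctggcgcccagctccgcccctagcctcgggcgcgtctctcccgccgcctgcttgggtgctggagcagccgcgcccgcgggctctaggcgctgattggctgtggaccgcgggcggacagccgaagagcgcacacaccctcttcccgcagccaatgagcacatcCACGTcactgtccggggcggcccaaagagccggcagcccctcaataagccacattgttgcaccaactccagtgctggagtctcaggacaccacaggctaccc
Pgk1, chrX:106186850-106187149, plus strand: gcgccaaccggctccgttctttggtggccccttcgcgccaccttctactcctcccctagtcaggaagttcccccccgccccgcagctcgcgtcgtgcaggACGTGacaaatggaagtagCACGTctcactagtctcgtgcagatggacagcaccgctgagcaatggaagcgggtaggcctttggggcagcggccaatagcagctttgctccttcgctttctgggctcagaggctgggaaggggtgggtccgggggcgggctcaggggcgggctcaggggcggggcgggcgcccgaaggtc
P4ha1, chr10:59323046-59323345, plus strand: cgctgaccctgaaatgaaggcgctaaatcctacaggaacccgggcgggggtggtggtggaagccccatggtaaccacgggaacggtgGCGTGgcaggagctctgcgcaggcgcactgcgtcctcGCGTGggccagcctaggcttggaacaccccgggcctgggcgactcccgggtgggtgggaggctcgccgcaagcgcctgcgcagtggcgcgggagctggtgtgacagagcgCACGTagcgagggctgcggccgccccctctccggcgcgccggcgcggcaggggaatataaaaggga
Pgam1, chr19:41911621-41911920, plus strand: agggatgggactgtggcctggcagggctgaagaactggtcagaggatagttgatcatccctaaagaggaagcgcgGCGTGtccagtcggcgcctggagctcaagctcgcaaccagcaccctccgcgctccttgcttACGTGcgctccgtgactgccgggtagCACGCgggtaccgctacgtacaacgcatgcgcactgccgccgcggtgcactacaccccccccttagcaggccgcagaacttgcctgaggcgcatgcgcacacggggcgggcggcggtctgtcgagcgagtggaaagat
Aldoc, chr11:78322823-78323122, plus strand: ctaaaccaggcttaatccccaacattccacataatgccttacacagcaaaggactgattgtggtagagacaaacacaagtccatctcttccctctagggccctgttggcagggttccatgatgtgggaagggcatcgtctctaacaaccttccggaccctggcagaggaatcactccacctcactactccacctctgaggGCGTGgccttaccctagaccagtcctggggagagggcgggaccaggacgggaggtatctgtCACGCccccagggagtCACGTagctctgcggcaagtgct
The Bnip3 window held 5 matches, of which the ACGTG on the minus strand and the ACGTG on the plus strand, 108 and 107 bases before the start, overlap in 1 palindrome. Pgk1 and Hk2 held 2 each, P4ha1, Pgam1 and Aldoc 3 each. In the Aldoc window printed, 2 of the 3 matches lay after the start. Another Aldoc window, at a different RefSeq start, is not printed and held 1 match, a GCGTG 39 bases before that start. Over all members, 33 had a window in the table (Bnip3l had none). Of these 33, 30 (90.9%) held a match in at least 1 window, against 46.7% of the 27025 genes in the table. The members were picked as genes of glycolysis and of the response to low oxygen, so this comparison is not a test of HIF. Per window the shares were 77.1% of the 48 member windows and 43.8% of all 32851. Member windows were also richer in the letters of the core: the median GC content was 63.2%, against 52.7% over all windows, and the median number of CG pairs was 21.0, against 7.0. Whether the match share goes beyond that base composition was not tested. A match is a description of the sequence, and the data hold no measure of HIF binding.

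The transporter genes of the set, Slc2a1 for glucose entry and Slc16a3 for lactate exit, were lower in both HET libraries. Of their listed paralogs, Slc2a4 and Slc16a7 were higher in both, and Slc2a3, Slc2a8 and Slc16a1 overlapped. Slc2a1 (chromosome 4, 119108711 to 119137983, GRCm38), the main glucose transporter of proliferating cells, stood at 92.6 and 86.3 CPM in HET, against 115 CPM in WT 1 and 158 CPM in the library labelled WT 2. Both HET values lay below both WT values (log2 fold change -0.61 ± 0.30, SE). Slc16a3, which exports lactate, stood at 31.5 and 20.5 CPM in HET, against 36.3 CPM in WT 1 and 53.3 CPM in the library labelled WT 2 (-0.78 ± 0.37). HET 1 lay close to WT 1 for this gene. Another carrier of lactate, Slc16a1, ordered the libraries otherwise, at 9.80 and 26.8 CPM in HET, against 52.7 CPM in WT 1 and 16.7 CPM in the library labelled WT 2.

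Hexokinases trap glucose in the cell, and the hypoxia-inducible Hk2 was lower in both HET libraries while the groups overlapped for the more widely expressed Hk1. Hk2 (chromosome 6, 82725025 to 82774454) stood at 38.3 and 27.8 CPM in HET, against 67.1 CPM in WT 1 and 65.2 CPM in the library labelled WT 2. The WT libraries lay close together and both HET libraries well below them (log2 fold change -1.0 ± 0.30, SE, a fold of 0.499). Without the library labelled WT 2 the log2 fold change was -1.02. Hk1 stood at 62.6 and 99.4 CPM in HET, against 90.4 CPM in WT 1 and 92.7 CPM in the library labelled WT 2, and HET 2 was the highest of the 4. As a share of the summed CPM per kilobase of all 5 hexokinase genes, a quantity that does not depend on how libraries are scaled, Hk2 was 43.3% and 27.4% in HET, against 50.1% in both WT libraries. The macrophage hexokinase Hk3 was 4.64% and 2.61% in HET, against 2.02% in WT 1 and 0.0886% in the library labelled WT 2.

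The next steps followed the same order with more spread. Gpi1, glucose-6-phosphate isomerase, stood at 107 and 144 CPM in HET, against 179 CPM in WT 1 and 186 CPM in the library labelled WT 2. Both WT libraries lay above both HET libraries (log2 fold change -0.54 ± 0.30, SE). The phosphofructokinase genes encode the enzyme of the first committed step. Pfkl, the liver-type subunit, stood at 53.1 and 92.5 CPM in HET, against 150.3 CPM in WT 1 and 111 CPM in the library labelled WT 2 (-0.84 ± 0.38). Pfkp, the platelet-type subunit, stood at 125 and 124 CPM in HET, against 133 CPM in WT 1 and 325 CPM in the library labelled WT 2. Its log2 fold change of -0.87 ± 0.46 (SE) was -0.09 without that library, so for Pfkp the separation rested on 1 library. The ratio of Pfkp to Pfkl per kilobase was 1.17 and 0.670 in HET, against 0.439 in WT 1 and 1.46 in the library labelled WT 2, and thus overlapped. Pfkfb3 and Pfkfb4 make fructose 2,6-bisphosphate, an activator of phosphofructokinase. Pfkfb3 stood at 59.8 and 51.2 CPM in HET, against 64.0 CPM in WT 1 and 46.2 CPM in the library labelled WT 2 (0.01 ± 0.31), and the HET values lay between the WT values. Pfkfb4 stood at 13 and 9.57 CPM in HET, against 5.33 CPM in WT 1 and 22.7 CPM in the library labelled WT 2, again with HET in between.

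Aldolase showed opposite orders for its paralogs. Aldoa, the main form in most tissues, stood at 239 and 235 CPM in HET, against 292 CPM in WT 1 and 391 CPM in the library labelled WT 2 (log2 fold change -0.53 ± 0.31, SE). Aldoc (chromosome 11, 78322968 to 78327781), the brain form, stood at 19.6 and 37.7 CPM in HET, against 11.9 CPM in WT 1 and 11.6 CPM in the library labelled WT 2. Both HET libraries lay above both WT libraries (1.28 ± 0.42, a fold of 2.43, unadjusted p = 0.0225 by edgeR), HET 2 more so. Without HET 2 the log2 fold change was 0.67 and the unadjusted p by edgeR 0.279. Aldoc was 6.80% and 12.5% of aldolase CPM per kilobase in HET, against 3.51% in WT 1 and 2.58% in the library labelled WT 2. Tpi1, triose-phosphate isomerase, stood at 156 and 238 CPM in HET, against 206 CPM in WT 1 and 249.9 CPM in the library labelled WT 2, and its groups overlapped.

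The payoff steps, which yield ATP, held the most abundant transcripts of the set. Per kilobase of merged exons, Gapdh had the highest mean level over the 4 libraries (189.8 CPM per kilobase), followed by Pkm (127), Pgk1 (115) and Eno1 (104). Pdk1 had the lowest (2.41). Pgk1 (chromosome X, 106187100 to 106203699), which makes the first ATP of the pathway, stood at 182 and 208 CPM in HET, against 319.9 CPM in WT 1 and 323 CPM in the library labelled WT 2. The WT libraries lay close together and both HET libraries well below them (log2 fold change -0.72 ± 0.29, SE, and -0.72 without the library labelled WT 2). Pgam1, phosphoglycerate mutase, stood at 85.2 and 93.4 CPM in HET, against 172 CPM in WT 1 and 137 CPM in the library labelled WT 2 (-0.79 ± 0.29). Its pseudogene Pgam1-ps2 stood lower in both HET libraries too, and the split of counts between such near copies is uncertain. The sum of both was 105 and 107 CPM in HET, against 198 CPM in WT 1 and 159.9 CPM in the library labelled WT 2.

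Eno1, the ubiquitous enolase, stood at 422 and 449 CPM in HET, against 518 CPM in WT 1 and 852 CPM in the library labelled WT 2 (log2 fold change -0.65 ± 0.37, SE, and -0.25 without that library). Reads of Eno1 and its retrocopy Eno1b may be shared. Summed, they stood at 523 and 587 CPM in HET, against 892 CPM in WT 1 and 1360 CPM in the library labelled WT 2, so the gap to WT 1 was wider for the sum than for Eno1 alone. The neuronal form Eno2 stood at 15.1 and 19.7 CPM in HET, against 12.3 CPM in WT 1 and 21.6 CPM in the library labelled WT 2. As a share of enolase CPM per kilobase, without Eno1b, Eno2 was 3.86% and 4.69% in HET, against 2.60% in WT 1 and 2.79% in the library labelled WT 2. Pkm, pyruvate kinase, stood at 455 and 566 CPM in HET, against 556 CPM in WT 1 and 961 CPM in the library labelled WT 2, with HET 2 and WT 1 level. Gene counts do not separate its splice forms. Gapdh stood at 432 and 861 CPM in HET, against 1186 CPM in WT 1 and 657 CPM in the library labelled WT 2, a range of 2.74-fold with overlapping groups.

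At the fate of pyruvate, Ldha (lactate dehydrogenase A, which favours lactate) stood at 201 and 347 CPM in HET, against 339.6 CPM in WT 1 and 422 CPM in the library labelled WT 2. HET 1 was low and HET 2 lay just above WT 1 (log2 fold change -0.47 ± 0.38, SE). The companion subunit Ldhb stood at 9.80 and 28.8 CPM in HET, against 171 CPM in WT 1 and 11.6 CPM in the library labelled WT 2. Ldha thus made up 90.7% and 85.1% of lactate dehydrogenase CPM per kilobase in HET, against 48.5% in WT 1 and 94.5% in the library labelled WT 2: WT 1 stood apart from all 3 others, as it did for Elf5. Pdk1 encodes a kinase that inhibits pyruvate dehydrogenase. It stood at 14.7 and 17.5 CPM in HET, against 20.4 CPM in WT 1 and 22.4 CPM in the library labelled WT 2. Its log2 fold change was -0.41 ± 0.33 (SE).

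**Figure D3:**
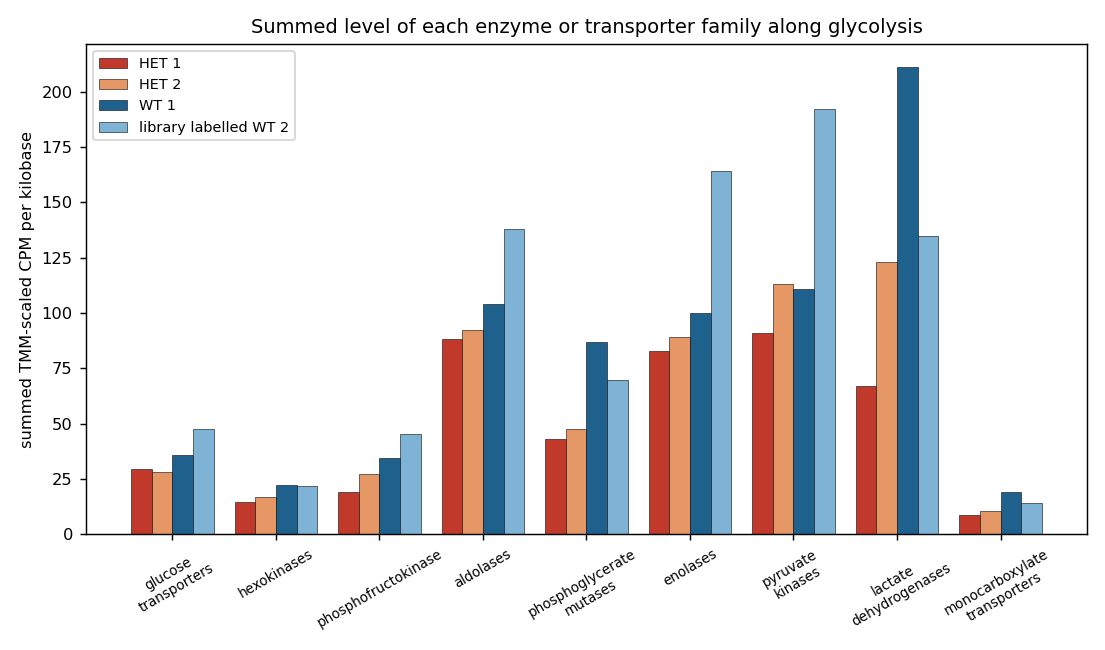
Summed TMM-scaled CPM per kilobase of the genes listed for each enzyme or transporter family, in the order of the pathway. Bars are HET 1, HET 2, WT 1 and the library labelled WT 2 (1 bar each, no error bars). The transporter lists hold only some genes of their families, and the enolases leave out Eno1b. Both HET bars are below both WT bars in all the families shown except pyruvate kinases, where HET 2 (113) is just above WT 1 (111).

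Summing the paralogs listed for each family reduces the weight of which isoform a tumour uses. Of 15 families, 10 had a summed CPM per kilobase that put both HET libraries under both WT libraries, 5 overlapped and 0 were higher. In several families 1 member counted above made up most of the sum, such as Pgam1 (98.5% to 99.8%) and Eno1 (93.6% to 96.4%). Such sums are not separate results. For single genes the lower order held for 15.9% of all genes, which is not a baseline for sums. Hexokinases summed to 14.8 and 17.0 in HET, against 22.4 in WT 1 and 21.8 in the library labelled WT 2. Phosphoglycerate mutases summed to 43.1 and 47.8 in HET, against 87.0 in WT 1 and 69.6 in the library labelled WT 2. Lactate dehydrogenases, whose members overlapped singly, did not overlap as a sum: 67.0 and 123 in HET, against 211 in WT 1 and 135 in the library labelled WT 2. Ldhb made up 51.5% of that sum in WT 1, against 9.31% and 14.9% in HET and 5.48% in the library labelled WT 2. The overlapping families were the PFKFB enzymes, pyruvate kinases, pyruvate dehydrogenase kinases, HIF prolyl hydroxylases and HIF alpha subunits.

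Bnip3 showed the clearest separation of the set. BNIP3 is a receptor on the outer mitochondrial membrane that directs mitochondria to autophagy in low oxygen. Bnip3 (chromosome 7, 138890836 to 138909519) stood at 12.3 and 11.4 CPM in HET, against 32.4 CPM in WT 1 and 35.1 CPM in the library labelled WT 2. The libraries of each genotype lay close together and the groups far apart (log2 fold change -1.51 ± 0.32, SE, a fold of 0.351, unadjusted p = 0.00298 by edgeR). Leaving out any 1 library gave -1.45 to -1.63. The closeness of the HET libraries may be that of tumours of 1 animal. Its paralog Bnip3l, also a mitophagy receptor, stood at 122 and 114 CPM in HET, against 103 CPM in WT 1 and 182 CPM in the library labelled WT 2 (-0.27 ± 0.36), with HET in between. Bnip3 made up 14.7% and 14.5% of the pair's CPM per kilobase in HET, against 34.9% in WT 1 and 24.7% in the library labelled WT 2.

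Among the oxygen sensors, Hif1a (chromosome 12, 73901375 to 73947530), the alpha subunit of HIF-1, stood at 115 and 106 CPM in HET, against 156 CPM in WT 1 and 180.5 CPM in the library labelled WT 2. Both HET libraries lay below both WT libraries (log2 fold change -0.61 ± 0.28, SE, and -0.50 without the library labelled WT 2). Epas1, which encodes the alternative alpha subunit HIF-2 alpha, took the opposite order at 129 and 122 CPM in HET, against 78.6 CPM in WT 1 and 100.5 CPM in the library labelled WT 2 (0.49 ± 0.29). The share of Hif1a in HIF alpha CPM per kilobase was 45.5% and 44.9% in HET, against 65.0% in WT 1 and 62.8% in the library labelled WT 2. The means were 45.2% ± 0.403 in HET and 63.9% ± 1.57 in WT (SD, n = 2 libraries each), a gap of 18.8 percentage points that library scaling cannot alter. Both HET libraries may come from 1 animal, so the SD in HET may not show how animals differ. The smallest two-sided p that an exact permutation test allows at this size is 0.33. Epas1 is also abundant in endothelial cells, whose 9 markers summed to 483 and 645 CPM of total counts in HET, against 414 in WT 1 and 221 in the library labelled WT 2; its part in the result was not tested.

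**Figure D4:**
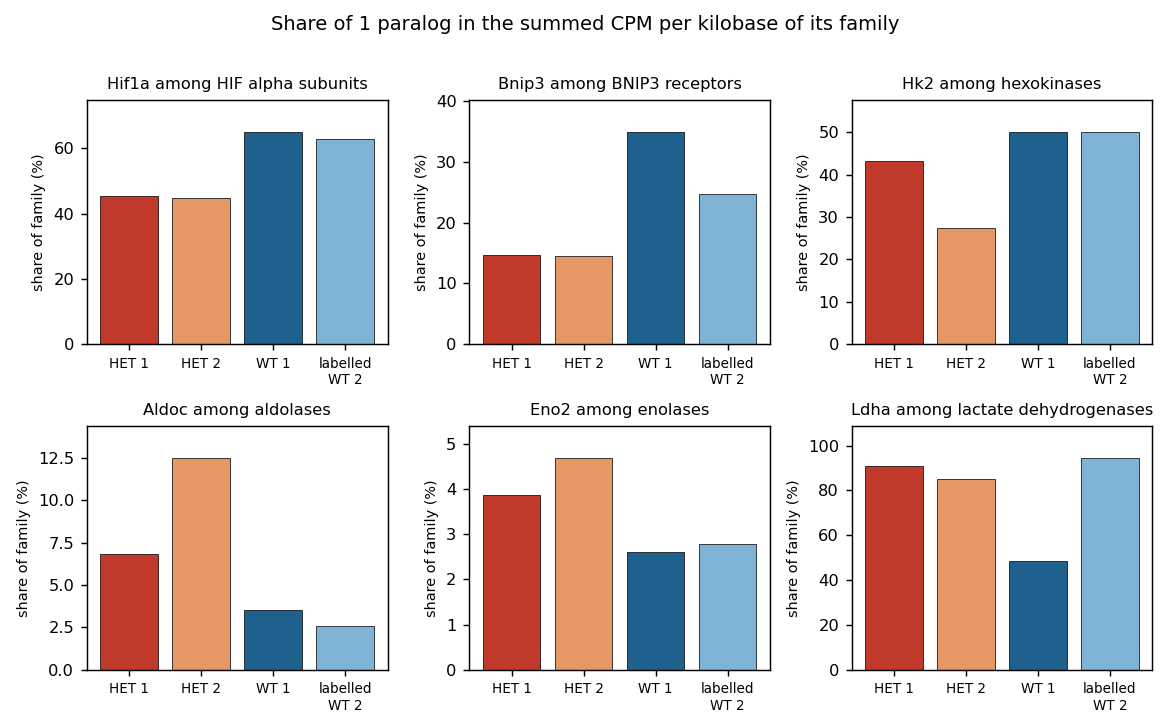
Share of 1 paralog in the summed CPM per kilobase of its family (percent), for HET 1, HET 2, WT 1 and the library labelled WT 2 (1 bar each, no error bars, each panel on its own axis from 0). Hif1a, Bnip3 and Hk2 take smaller shares in both HET libraries, Aldoc and Eno2 larger ones, and the Ldha share is lowest in WT 1.

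Egln1 and Egln3, which hydroxylate HIF alpha and are themselves HIF targets, did not separate the genotypes. Egln1 stood at 52.1 and 44.5 CPM in HET, against 38.3 CPM in WT 1 and 73.1 CPM in the library labelled WT 2. Egln3 stood at 12 and 30.2 CPM in HET, against 12.5 CPM in WT 1 and 49.5 CPM in the library labelled WT 2. For each of them the log2 fold change (-0.21 ± 0.38 and -0.56 ± 0.73, SE) changed sign without the library labelled WT 2, to 0.33 and 0.75. Their paralog Egln2 was lower in both HET libraries by a small margin and stood at 21.4 and 24.4 CPM in HET, against 25.7 CPM in WT 1 and 28.6 CPM in the library labelled WT 2.

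Among the other hypoxia-induced genes, P4ha1 and Vegfa were lower in both HET libraries. P4ha1 (chromosome 10, 59323296 to 59373304), a catalytic subunit of the collagen prolyl hydroxylase, stood at 61.4 and 69.6 CPM in HET, against 100.5 CPM in WT 1 and 149 CPM in the library labelled WT 2 (log2 fold change -0.93 ± 0.32, SE, and -0.62 without that library). Vegfa, the angiogenic growth factor, stood at 293 and 266 CPM in HET, against 351 CPM in WT 1 and 437 CPM in the library labelled WT 2 (-0.50 ± 0.31). The 10 fibroblast markers summed to 4896 and 6083 CPM of total counts in HET, against 7307 in WT 1 and 21675 in the library labelled WT 2, the same order as P4ha1, and their part in it was not tested.

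Car9 carried the widest range of the set. It encodes carbonic anhydrase IX, a surface enzyme widely used as a marker of hypoxic tumour cells. Car9 (chromosome 4, 43506966 to 43513729) stood at 17.9 and 15.7 CPM in HET, against 6.92 CPM in WT 1 and 56.5 CPM in the library labelled WT 2, an 8.16-fold range with HET in the middle. Its log2 fold change was -0.91 ± 0.86 (SE) with all libraries, 1.28 without the library labelled WT 2 and -1.75 without WT 1. The sign thus depended on which WT library was used. P4ha2, the other collagen hydroxylase subunit here, stood at 41.5 and 23.4 CPM in HET, against 30.1 CPM in WT 1 and 83.9 CPM in the library labelled WT 2. Ankrd37, a small ankyrin-repeat protein gene with a strong HIF response, stood at 7.59 and 12.1 CPM in HET, against 6.20 CPM in WT 1 and 18.7 CPM in the library labelled WT 2. Kdm3a, a histone demethylase, stood at 113 and 90.5 CPM in HET, against 81.2 CPM in WT 1 and 169.8 CPM in the library labelled WT 2. In each of these the library labelled WT 2 was the highest, and WT 1 did not lie above both HET libraries.

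The remaining members overlapped between genotypes. Adm, the vasodilator peptide adrenomedullin, stood at 28.5 and 20.4 CPM in HET, against 23.0 CPM in WT 1 and 37.2 CPM in the library labelled WT 2. Ddit4, an inhibitor of mTORC1 that also answers other stresses, stood at 46.9 and 56.1 CPM in HET, against 98.1 CPM in WT 1 and 41.2 CPM in the library labelled WT 2, and was high in WT 1 alone (log2 fold change -0.44 ± 0.45, SE, and 0.32 without WT 1). Mxi1, an antagonist of MYC, stood at 74.6 and 42.7 CPM in HET, against 51.9 CPM in WT 1 and 72.6 CPM in the library labelled WT 2, with the libraries of each genotype far apart.

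Other genes of the pathway gave the context. Of 40 further hypoxia-induced genes, all tested, 29 were below 0 (median log2 fold change -0.24) and 0 passed in edgeR; 14 were lower in both HET libraries and 4 higher, where 15.9% and 19.6% of all genes were. The 2 with an unadjusted p under 0.05 were Loxl2 and Higd1a. Higd1a, a mitochondrial protein induced by low oxygen, stood at 14.5 and 22.0 CPM in HET, against 42.1 CPM in WT 1 and 50.9 CPM in the library labelled WT 2 (-1.35 ± 0.35, SE), with both HET libraries below both WT libraries. Loxl2, a collagen cross-linking oxidase, had a log2 fold change of -1.39 ± 0.31. Lox and Tmem45a came next, at -1.10 and -1.94, of which Tmem45a overlapped between genotypes. Leaving out the library labelled WT 2 gave -0.37 for Lox and -0.47 for Tmem45a. Without the library labelled WT 2 the list's median was -0.12 and 23 of 40 were below 0.

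Of 34 further genes of glycolysis and lactate metabolism 26 were tested, 17 of them below 0 (median -0.22), and 0 passed in edgeR at an adjusted or an unadjusted p under 0.05. The 4 of smallest p were Ldhd (log2 fold change 1.08), Ldhb (-2.24), Slc2a4 (0.88) and Slc16a1 (-0.92). Leaving out WT 1 turned the sign of Ldhb, to 0.73, and of Slc16a1, to 0.13. Leaving out the library labelled WT 2 gave a median of 0.11, with 11 of 26 below 0. Of 16 genes listed as HIF machinery 14 were below 0 (median -0.32, and -0.43 without that library) and 0 passed in edgeR at either threshold. The genes of smallest p on that list were Epas1, Hif1an, P4ha3 and Siah2. Of these, P4ha3 encodes a collagen prolyl hydroxylase subunit. Hif1an, the asparaginyl hydroxylase that limits HIF, stood at 22.5 and 20.7 CPM in HET, against 31.8 CPM in WT 1 and 29.0 CPM in the library labelled WT 2, and Siah2, a ubiquitin ligase for EGLN enzymes, had a log2 fold change of -0.66. P4ha3 had -0.82 and overlapped, and stood at 0.07 without the library labelled WT 2.

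Markers of other cell types moved between the same libraries. Fibroblast markers (10 genes) summed to 4896 and 6083 CPM of total counts in HET, against 7307 in WT 1 and 21675 in the library labelled WT 2. All 10 had a log2 fold change below 0, where 47.3% of all genes did. Their median was -0.87, and -0.20 without the library labelled WT 2. Both HET libraries lay below both WT libraries for 7 of the 10, where 15.9% of all genes did. Summed macrophage markers (14 genes) stood at 4216 and 1699 CPM of total counts in HET, against 2035 in WT 1 and 159.8 in the library labelled WT 2, and pan-leukocyte markers (11 genes) at 494 and 379 in HET, against 356 in WT 1 and 135 in the library labelled WT 2. T and NK cell markers (11 genes) stood at 56.4 and 59.3 in HET, against 21.6 in WT 1 and 6.21 in the library labelled WT 2. Erythroid, neutrophil, adipocyte and skeletal muscle markers each summed to 98.1 or less in every library. In the library labelled WT 2, Cldn5, Nkg7, Retnlg, Hba-a2, Hbb-bs, Myh1 and Myh4 were at 0 counts, as were Nkg7, Hba-a2 and Cidec in HET 2. Epithelial markers (10 genes) summed to 2800 and 2523 in HET, against 3604 in WT 1 and 3226 in the library labelled WT 2; 0 of the 10 were at 0 counts in any library. The part of cell composition in the members' values was not tested.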

How the data were processed

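Libraries from 4 sorted mouse tumours were compared, 2 HET and 2 WT, grouped by genotype label or title. Per the submitters' processing notes, the authors ran Salmon on GRCm38.p5 and deposited estimated counts per gene, whole numbers in the table; its version, annotation and strandedness: not given in the sources used here. Identifiers were matched to GENCODE M21 (51633 of 51826 found). Every row named a gene, and no column belonged to another sample.

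The test for HET over WT was run in R 4.3.3 with edgeR 4.0.16: filterByExpr, TMM, quasi-likelihood F test, genotype as the only term, Benjamini-Hochberg adjustment over 21607 genes, threshold 0.05. The common biological coefficient of variation was 0.46. An SE is the log2 fold change divided by the square root of F. The script was tested on simulated data. CPM use TMM-scaled library sizes; marker sums use total counts. CPM per kilobase divide by merged exon length. Counts of near-identical copies depend on how reads were shared. Library ratios use log2(CPM + 0.5). At these depths 3 counts, the limit that a count of 0 allows, were 0.195 to 0.239 CPM, for counting error only. No libraries agreed within sampling noise (chi-square per degree of freedom 35.7 to 91.9). The value was 44.3 between the HET libraries and 70 between the WT libraries. Between genotypes, HET 1 and HET 2 gave 41 and 35.7 with WT 1, and 62.1 and 91.9 with the library labelled WT 2. Libraries of the same genotype were thus not the closest pairs. DESeq2 1.42.0, limma-voom (limma 3.58.1), other scalings and filters, and leaving out each library on the same genes were alternatives; in the last the lone library of a genotype is assumed to vary like the others. Promoter sequences are RefSeq's, GRCm38.p6.

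The members and lists were chosen with earlier results of these data known. Named genes are all members, their paralogs and retrocopies, Elf5, and the 4 genes of smallest p in each other pathway list. The level of 1 marker gene is not reported here.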

Additional observations from a re-analysis of the deposited data

How the results depend on the processing

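The count of genes called by edgeR at an adjusted p under 0.05, 0 with all libraries, was 324 with a filter of 1 count, 134 in DESeq2 and between 0 and 657 with 1 library left out (657 without WT 1, 9 without the library labelled WT 2, 0 without either HET library). The count of members called, 0, was 1 in DESeq2 (Bnip3) and between 0 and 1 with 1 library left out (Car9, without WT 1). The members' median log2 fold change of -0.52 lay between -0.68 and -0.23 with 1 library left out, nearest 0 without the library labelled WT 2, and between -0.61 and -0.34 under the other settings. The value of -0.34 came from total-count scaling, which put the median of all genes at 0.22 in place of 0.04. Members below 0 numbered 22 to 31 with 1 library left out and 29 to 33 otherwise. Members lower in both HET libraries numbered 18 to 28 with 1 library left out, a looser condition that 29.6% to 33.6% of all genes met, and 14 or 15 otherwise. The promoter share was 90.9% with either window.

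Single members changed sign near 0: Hk1 to 0.01 under total-count scaling, Pfkfb3 to -0.02 (RLE and DESeq2) and -0.07 (filter of 1 count), Eno2 to -0.03 (RLE and DESeq2) and -0.07 (filter of 1 count), and Mxi1 to 0.01 (upper quartile) and 0.10 (total counts). With 1 library left out the log2 fold change spanned 0 for 14 members: Car9 (-1.75 to 1.28), Pfkfb4 (-1.0 to 1.08), Egln3 (-1.47 to 0.75), Ankrd37 (-0.92 to 0.66), Eno2 (-0.31 to 0.50), Egln1 (-0.60 to 0.33), Kdm3a (-0.74 to 0.32), Ddit4 (-0.93 to 0.32), Pfkfb3 (-0.21 to 0.26), Bnip3l (-0.63 to 0.20), Mxi1 (-0.61 to 0.18), P4ha2 (-1.37 to 0.11), Adm (-0.63 to 0.09) and Hk1 (-0.62 to 0.06). The cause was not tested. No paired analysis was possible because the labels give no numbers that pair HET with WT libraries.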

Other observations

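Genes of neighbouring routes of glucose carbon were counted in the same fit. Of 24 genes of mitochondrial pyruvate entry and the TCA cycle 10 had a log2 fold change below 0 (median 0.08, and 0.05 without the library labelled WT 2), with 3 lower and 2 higher in both HET libraries, where 15.9% and 19.6% of all genes were, and 0 passed in edgeR at an adjusted or an unadjusted p under 0.05. Those of smallest p were Idh3g (0.76), Dlst (-0.49), Mdh1 (0.68, and 0.03 without HET 2) and Cs (-0.46). Of these, Mdh1 encodes the cytosolic malate dehydrogenase, though it was on this list. Idh3g, a subunit of mitochondrial isocitrate dehydrogenase, stood at 43.1 and 54.5 CPM in HET, against 37.1 CPM in WT 1 and 20.7 CPM in the library labelled WT 2. Of 8 pentose phosphate genes 5 were below 0 (median -0.04, and -0.16 without the library labelled WT 2), again with 0 passing at either threshold. Tkt, transketolase, stood at 67.8 and 76.8 CPM in HET, against 96.7 CPM in WT 1 and 83.2 CPM in the library labelled WT 2, while Pgls (0.34), Taldo1 (-0.32) and G6pdx (0.26, but -0.22 without the library labelled WT 2 and -0.06 without HET 2) were divided in sign. Of 7 gluconeogenic genes 4 were tested, 2 below 0 (median 0.05, and -0.15 without the library labelled WT 2), with 0 passing at either threshold: Pcx had 0.50, Pck2 -0.30, G6pc3 0.29 and Pck1 -0.20, whose sign turned without WT 1 (0.99) and without HET 2 (0.43).

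Retrocopies named after members stood at 1.03 CPM or less in every library, apart from Eno1b and Pgam1-ps2. Pgam1-ps2 stood at 19.8 and 14.0 CPM in HET, against 26.1 CPM in WT 1 and 23.4 CPM in the library labelled WT 2. Eno1b stood at 101 and 139 CPM in HET, against 375 CPM in WT 1 and 508 CPM in the library labelled WT 2. Its log2 fold change was -1.88 ± 0.35 (SE), with an adjusted p of 0.986 in edgeR and 0.00328 in DESeq2. Eno1b took 19.3% and 23.6% of the counts of Eno1 and Eno1b together in HET, against 42.0% in WT 1 and 37.3% in the library labelled WT 2. Whether this share reflects transcription or the sharing of reads was not tested.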
